A study of Mus musculus with 16 samples.

Results

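Formative and primed state genes were followed in mouse ESCs (embryonic stem cells) after suppression of RAM, the activating subunit of the mRNA cap methyltransferase RNMT. The genes are the growth factor Fgf5, the transcription factors Otx2, Pou3f1, Zic2, Foxd3, Pou5f1 (Oct4) and Sall2, and the SoxC factors Sox4 and Sox11. They were taken by name from a list, 9 of the 46983 genes in the count table, and the entry spelled Salll2, which is no gene symbol, was read as Sall2. The cells were 46C ESCs of strain 129Ola, which carry GFP at the Sox1 locus, and they were grown on gelatin with LIF and knockout serum replacement. They were transfected with RAM siRNA or with a non-targeting control siRNA, harvested 48 hr later after 10 min in cycloheximide at 100 µg/ml, and lysed. In each group, 4 replicates gave a library from the whole cytoplasmic lysate (input) and a library from pooled sucrose gradient fractions 17 to 22 (polysomes), 16 libraries in all. The knockdown was transient, and a single cell line was used. The study describes a single RAM siRNA for the 4 replicates, so its off-target effects cannot be told apart from those of RAM loss. Each library was scaled to its own total, so a shift shared by all transcripts of a fraction is not seen in these values.

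Pluripotent cells pass from a naive state, that of ESCs kept with LIF, through a formative state into a primed state, that of the epiblast shortly before gastrulation. Fgf5 is the classic marker of cells that have left the naive state. Otx2 and Foxd3 take part in switching enhancers along the way, and Pou3f1, Zic2, Sall2, Sox4 and Sox11 are developmental transcription factors. Pou5f1 is made in all of these states and is required for pluripotency.

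The target of the siRNA, Ramac (the gene of RAM), had 10.1 to 11.6 CPM (its count per library total, TMM scaled) in control input and 2.67 to 3.17 CPM in input of cells with RAM siRNA. It fell by 1.84 ± 0.11 on the log2 scale (SE, n = 4 against 4, adjusted p = 7.24e-06). This and every adjusted p below come from the quasi-likelihood test of edgeR, Benjamini-Hochberg adjusted over all genes tested, unless another tool is named. Libraries held 16647523 to 20147833 counts. All 10 ESC markers looked at passed the filter on low counts, with a summed level of 2841 to 3152 CPM in control input and 2475 to 2804 CPM with RAM siRNA. The neural marker Pax3 was at 0 in all input libraries, and Lum, a fibroblast marker, likewise. One library stood apart: polysome RAM siRNA replicate 2 differed from the other 3 of its group by a chi-square per gene of 133 to 334, against 48.7 to 106 among those 3. Results of single genes in polysomes are also given without replicate 2.

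Per length of exon, the 9 genes in control input spanned a wide range of levels. Pou5f1 stood at 216 ± 20.6 CPM per kb (SD, n = 4), above 98.6% of the 12777 tested genes with a length, and Foxd3 at 29.3 ± 3.25 CPM per kb, above 86.4%. Below them came Sox4 at 5.39 ± 0.81, Zic2 at 4.35 ± 0.90, Sox11 at 3.04 ± 0.47 and Otx2 at 2.37 ± 0.54 CPM per kb. Neighbors among these last 4 overlapped between libraries and are not separated in that order. Pou3f1 followed at 1.22 ± 0.18 CPM per kb, below every library of Otx2, and Sall2 and Fgf5 stood last at 0.18 ± 0.042 and 0.11 ± 0.038 CPM per kb, with overlapping libraries. In control polysomes the order was Pou5f1, Foxd3, Zic2, Sox4, Otx2, Pou3f1, Sox11, Sall2 and Fgf5. Sox11, above Otx2 and Pou3f1 in input, stood below both there at 0.67 ± 0.10 CPM per kb and overlapped Pou3f1.

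**Figure D1:**
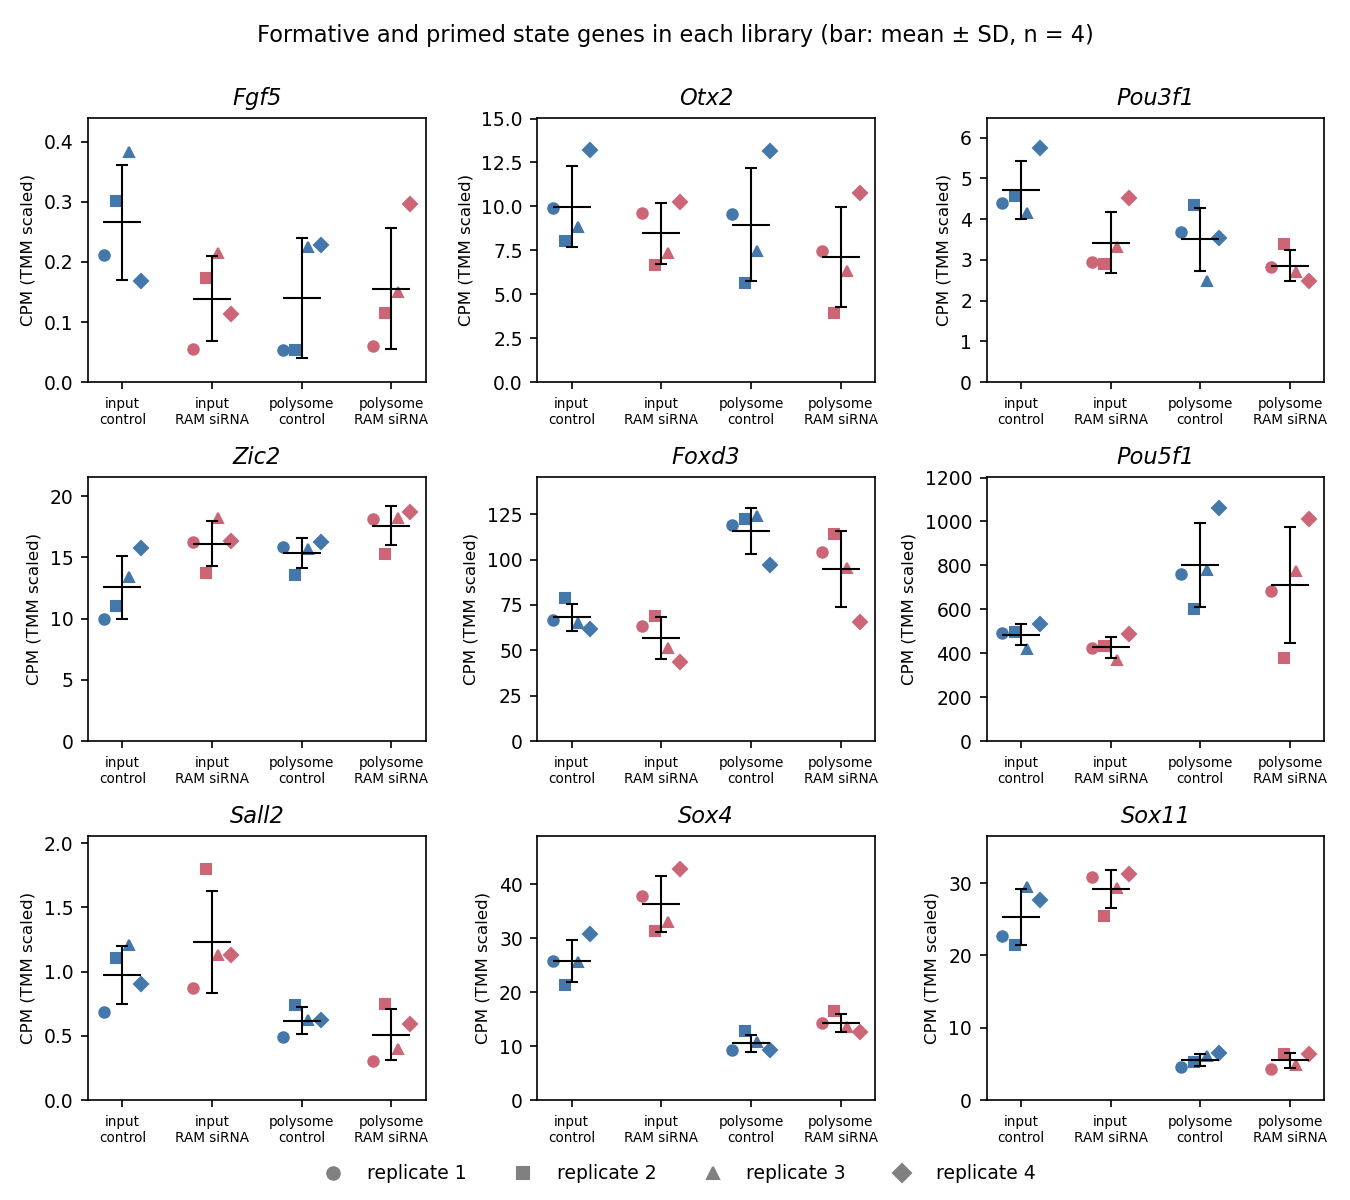
CPM of each of the 9 genes (vertical axis, TMM scaled, starting at 0) in the 4 groups (horizontal axis), with a symbol for each replicate number, blue for control and red for RAM siRNA, and the mean ± SD (n = 4) in black. Sox4 is the only one of the 9 whose RAM siRNA libraries all lie above the control libraries in input, at 31.3 to 42.9 against 21.3 to 30.8 CPM. How common such a separation is over all genes was not counted. Sox4 and Sox11 are far lower in polysomes than in input.

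Fgf5 and Sall2 did not pass the filter on low counts, which required 1 CPM or more in 10 or more libraries. Fgf5 reached 1 CPM in 0 of 16 libraries and Sall2 in 5. Fgf5 (chromosome 5, 98254184 to 98277030 on the plus strand, GRCm38) had 4, 6, 7 and 3 counts in the control input libraries and 1, 3, 4 and 2 counts with RAM siRNA. All 4 pairs of the same number were lower with RAM siRNA, but the groups overlapped, and a two-sided exact permutation test gave p = 0.143, where 4 against 4 libraries allow no p below 0.0286. In polysomes, Fgf5 had 1 to 4 counts in control libraries and 1 to 5 with RAM siRNA (exact permutation p = 0.914). Sall2 (chromosome 14, 52311172 to 52328762 on the minus strand), a zinc finger factor, had 13, 22, 22 and 16 counts in control input and 16, 31, 21 and 20 with RAM siRNA (exact permutation p = 0.371). In polysomes it had 9, 14, 11 and 11 counts in control libraries and 5, 13, 8 and 10 with RAM siRNA (exact permutation p = 0.371). No difference was detectable at this depth for either gene, and Fgf5 had at most 7 counts in any library.

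To ask whether transcript levels of the other 7 genes depended on RAM, RAM siRNA was compared with control in input. Sox4 rose by 0.49 on the log2 scale, a 1.40-fold increase, and was the 1 of 7 past the threshold of adjusted p under 0.05, against a background of 12.9% of the 12805 genes tested (5.94% lower and 6.95% higher). At an unadjusted p under 0.05 there were 3, Pou3f1, Zic2 and Sox4, against 28% of all genes. DESeq2 and limma-voom also called Sox4 alone. Since same-numbered libraries varied together, a second fit took the replicate number as a block, and 39.3% of all genes passed in it. All 7 then passed: Otx2, Pou3f1, Foxd3 and Pou5f1 were lower (background 19%) and Zic2, Sox4 and Sox11 higher (background 20.3%). DESeq2 with the same block called 4 of them and did not call Otx2 (adjusted p = 0.225), Pou3f1 (0.0802) or Sox11 (0.0970). The median log2 fold change of the 7 was -0.19 in both fits, beside 0.00070 and -0.00036 over all genes. It is the value of Pou5f1, the middle one of the 7. RNA was measured in bulk, so fewer cells with a transcript and less of it per cell cannot be told apart.

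Otx2 (chromosome 14, 48657677 to 48673819, minus strand) drives the first steps out of the naive state. Its level was 9.89, 8.02, 8.82 and 13.2 CPM in control input and 9.61, 6.67, 7.35 and 10.2 CPM with RAM siRNA, in the order of replicates 1 to 4. Replicate 4 was highest and replicate 2 lowest under both siRNAs, and the groups overlapped although all 4 pairs were lower with RAM siRNA. The log2 fold change was -0.24 ± 0.17 (SE, n = 4 against 4, adjusted p = 0.411), and with the replicate block -0.24 ± 0.09 (adjusted p = 0.0475). Leaving out 1 library moved the first value from -0.077 (without control replicate 4) to -0.34 (without RAM siRNA replicate 4). Among the blocked fits that left out 1 replicate number, Otx2 passed only where replicate 1 was left out.

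Pou3f1 (Oct6), a POU factor of the formative and early neural epiblast, lies on chromosome 4 (124656807 to 124660655, plus strand) as a gene of 1 exon. Control input libraries held 4.39, 4.56, 4.16 and 5.74 CPM and RAM siRNA libraries 2.95, 2.90, 3.33 and 4.53 CPM. Replicate 4 with RAM siRNA reached into the control range, and the other 3 lay below all control libraries. Its log2 fold change was -0.46 ± 0.17 (adjusted p = 0.0992) without the block and -0.47 ± 0.13 (adjusted p = 0.00704) with it. Without input RAM siRNA replicate 4 it was -0.62, past the threshold also with no block.

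Foxd3, a forkhead factor of pluripotent cells and neural crest, is a gene of 1 exon on chromosome 4 (99656299 to 99658622, plus strand). It stood at 66.5, 79.1, 65.3 and 61.7 CPM in control input and at 63.1, 69.0, 51.5 and 43.3 CPM with RAM siRNA. The groups overlapped, every pair was lower with RAM siRNA, and the log2 difference within pairs ran from -0.08 in replicate 1 to -0.51 in replicate 4. The fitted change was -0.27 ± 0.13 (adjusted p = 0.207), and -0.28 ± 0.06 (adjusted p = 6.2e-04) with the replicate block.

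Pou5f1 (chromosome 17, 35506018 to 35510772, plus strand) had 492, 495, 421 and 532 CPM in control input and 423, 431, 369 and 485 CPM with RAM siRNA. Its pairs agreed more closely than those of any other of the 7 genes, with log2 differences of -0.22, -0.20, -0.19 and -0.13. The groups overlapped, because replicate 3 was lowest and replicate 4 highest under both siRNAs. The log2 fold change of -0.19 ± 0.10 had an adjusted p of 0.231 without the block, and with it -0.19 ± 0.04 had an adjusted p of 0.00113.

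Zic2, a zinc finger factor that binds enhancers in ESCs and acts in the neural plate, lies on chromosome 14 (122475435 to 122479852, plus strand). It had 9.94, 11.0, 13.4 and 15.8 CPM in control input and 16.3, 13.7, 18.2 and 16.3 CPM with RAM siRNA. All 4 pairs were higher with RAM siRNA, by 0.71, 0.31, 0.44 and 0.05 on the log2 scale, and the groups overlapped. A log2 fold change of 0.36 ± 0.14 (adjusted p = 0.112) was fitted without the block, and one of 0.37 ± 0.09 (adjusted p = 0.00297) with it. Without replicate 1 the blocked fit did not call Zic2, and without control replicate 4 the fit with no block did, at 0.49.

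Sox4 and Sox11 belong to the SoxC group of HMG box factors, which act in neural and mesenchymal progenitors. Sox4 (chromosome 13, 28948919 to 28953713, minus strand, 1 exon) had 25.7, 21.3, 25.5 and 30.8 CPM in control input and 37.8, 31.3, 33.1 and 42.9 CPM with RAM siRNA. These groups did not overlap, and the log2 differences within pairs were 0.55, 0.56, 0.37 and 0.48. Its log2 fold change was 0.49 ± 0.12 (adjusted p = 0.0202), and 0.49 ± 0.06 (adjusted p = 1.12e-06) with the replicate block. The call without the block was lost in a fit over all 16 libraries (adjusted p = 0.118) and when any 1 of 3 libraries was left out: control replicate 1 (adjusted p = 0.0577), control replicate 2 (adjusted p = 0.0612) or RAM siRNA replicate 1 (adjusted p = 0.0653). With the block it stayed past the threshold whichever replicate number was left out, between 0.47 and 0.53. A long noncoding RNA on the opposite strand, Gm26735, overlaps 54.56% of the Sox4 exon, and the strand setting of the counting is not given in the sources used here.

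Sox11 (chromosome 12, 27334264 to 27342574, minus strand, 1 exon) had 22.6, 21.4, 29.5 and 27.6 CPM in control input and 30.8, 25.4, 29.4 and 31.2 CPM with RAM siRNA. Replicates 1, 2 and 4 were higher with RAM siRNA and replicate 3 was level, and the groups overlapped. The log2 fold change was 0.21 ± 0.11 (adjusted p = 0.258) without the block and 0.21 ± 0.07 (adjusted p = 0.0182) with it. In the blocked fit without replicate 1 it was not called, at 0.13 (adjusted p = 0.191).

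**Figure D2:**
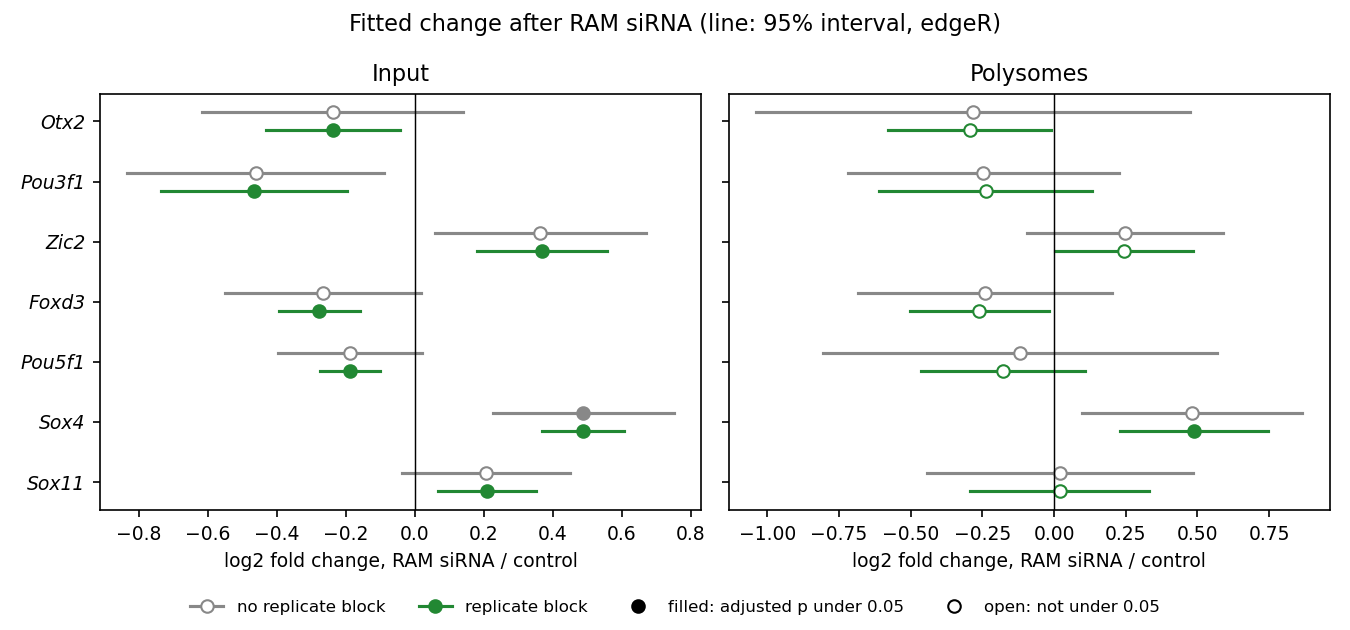
Log2 fold change of RAM siRNA over control (horizontal axis) for the 7 genes tested, in input (left) and polysomes (right), with the 95% interval as a line. Gray is the fit without and green the fit with the replicate block, and filled points have an adjusted p under 0.05. In input all 7 green points are filled, from -0.47 for Pou3f1 to 0.49 for Sox4, and in polysomes only that of Sox4 is.

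In polysomes the same comparison concerns the level of each transcript in the pooled polysome fractions, which can also move with its level in input. None of the 7 genes passed without the block, where 0.0234% of all genes did, and 1 of 7 had an unadjusted p under 0.05 (9% of all genes). DESeq2 and limma-voom likewise called 0 of 7. With the replicate block Sox4 passed, higher (background 14.6%, of which 9.68% higher and 4.97% lower). In that fit 4 of 7 had an unadjusted p under 0.05 (28.2% of all genes). The median log2 fold change of the 7 was -0.12 without and -0.18 with the block, beside 0.06 and 0.03 over all genes.

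Sox4 had 9.37, 12.7, 10.7 and 9.27 CPM in control polysomes and 14.3, 16.5, 13.5 and 12.6 CPM with RAM siRNA. Every pair was higher with RAM siRNA, and the groups overlapped slightly, at control replicate 2 and RAM siRNA replicate 4. Its log2 fold change was 0.48 ± 0.17 (adjusted p = 0.410), and 0.49 ± 0.12 (adjusted p = 0.0142) with the block. Leaving out replicate 1 or replicate 4 from the blocked fit ended this call (adjusted p = 0.126 and 0.0890).

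Zic2 was again higher in all 4 pairs, by 0.19, 0.17, 0.22 and 0.20 on the log2 scale, a narrow spread, with a blocked log2 fold change of 0.24 ± 0.11 (adjusted p = 0.168). Foxd3 was lower in all 4 pairs, with -0.26 ± 0.11 (adjusted p = 0.146), and Otx2 too, with -0.29 ± 0.13 (adjusted p = 0.160) and -0.24 without replicate 2. With replicate 2, the number of the library that stood apart, left out of the blocked fit, 3 of the 7 genes passed, Zic2 higher at 0.26, Foxd3 lower at -0.32 and Sox4 higher at 0.52. In that fit 4558 genes passed, or 35.6% of those tested.

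In polysomes Pou5f1 was lowest in the library that stood apart, and the control library of that number was lowest of its group. Pou5f1 had 759, 603, 779.9 and 1061 CPM in control polysomes and 683, 377, 774 and 1011 CPM with RAM siRNA, so that replicate 2 with RAM siRNA lay well below the rest. All 4 pairs were lower with RAM siRNA, but replicates 3 and 4 by only -0.01 and -0.07 on the log2 scale. Without the block its log2 fold change was -0.12 ± 0.31 (adjusted p = 0.984), and without that library alone 0.098, on the other side of 0. With replicate 2 of both siRNAs left out of the blocked fit it was -0.020 (adjusted p = 0.873). Pou3f1 (-0.25 ± 0.21, adjusted p = 0.884) and Sox11 (0.02 ± 0.21, adjusted p = 0.998) did not pass in either fit, and stood at -0.20 and -0.077 in the blocked fit without replicate 2.

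Whether polysome loading, the level in polysomes relative to input, responded to RAM siRNA was tested as the difference between both effects. None of the 7 genes passed without the block, where 0% of all genes did, or with it within each fraction, where 0.0156% did. None had an unadjusted p under 0.05 (0.781% of all genes without the block and 4.97% with it), and DESeq2 and limma-voom called 0 of 7. The largest estimate was that of Sox11, -0.23 ± 0.23 without the block (95% interval -0.71 to 0.25) and -0.24 ± 0.16 with it (-0.57 to 0.09). For Sox4 the blocked difference was -0.05 ± 0.12 (-0.31 to 0.20), for Foxd3 -0.03 ± 0.13 (-0.30 to 0.24) and for Pou5f1 -0.04 ± 0.14 (-0.34 to 0.26). A p above the threshold does not show that loading was the same, and these intervals are what the 16 libraries allow.

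In control cells the 7 genes differed strongly in how they were shared between polysomes and input. Foxd3 and Pou5f1 were higher in polysomes and Sox4 and Sox11 lower, 4 of 7 past the threshold, against 67.4% of all genes (34.3% lower and 33.1% higher), so their share is near the background. With the replicate block 5 of 7 passed (background 72.3%, 37.2% lower and 35.1% higher), with Pou3f1, lower, added to those 4. The sizes set the 4 genes apart from each other more than the calls do.

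Foxd3 had 119, 122, 124 and 96.8 CPM in control polysomes, all above the 61.7 to 79.1 CPM of control input. Its log2 ratio of polysome to input was 0.73 ± 0.12 (adjusted p = 3.3e-04), a 1.65-fold enrichment. For Pou5f1 it was 0.69 ± 0.17 (adjusted p = 0.00414), 1.61-fold, with no overlap between the fractions. In cells with RAM siRNA, replicate 2 of Pou5f1 was the exception, at -0.19 where the other 3 pairs had log2 ratios of 0.69 to 1.07.

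Sox4 in control polysomes, at 9.27 to 12.7 CPM, lay below all control input libraries. Its log2 ratio of polysome to input was -1.33 ± 0.15 (adjusted p = 1.9e-05), 0.398 of the input level. Sox11 had 4.60, 5.30, 6.03 and 6.48 CPM in control polysomes, against 21.4 to 29.5 CPM in control input. Its log2 ratio was -2.21 ± 0.16 (adjusted p = 9.18e-07), 0.217 of the input level, and 3.05% of all tested genes had a lower one. The third SoxC gene, Sox12, which is not on the list, behaved alike, with -1.70 ± 0.19 (adjusted p = 1.3e-05), and was chosen for mention after its value was seen. In cells with RAM siRNA the pairs of Sox11 had log2 ratios of -2.82, -1.98, -2.57 and -2.28, and those of Sox4 -1.40, -0.92, -1.29 and -1.76.

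Pou3f1 had 3.68, 4.34, 2.48 and 3.53 CPM in control polysomes, lower than its input partner in all 4 pairs. The log2 ratio was -0.46 ± 0.19 (adjusted p = 0.0546), and -0.46 ± 0.16 (adjusted p = 0.0309) with the replicate block. Zic2, at 13.6 to 16.3 CPM in control polysomes, had a log2 ratio of 0.26 ± 0.15 (adjusted p = 0.157), and Otx2, at 5.67 to 13.1 CPM, one of -0.19 ± 0.25 (adjusted p = 0.509). Zic2 was higher in polysomes in all 4 pairs and Otx2 lower in all 4. Zic2 passed with no filter on low counts (0.39, adjusted p = 0.0463) and without input control replicate 4 (0.39, adjusted p = 0.0455), and Otx2 ran from -0.0081 (without polysome control replicate 2) to -0.44 (without polysome control replicate 4).

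**Figure D3:**
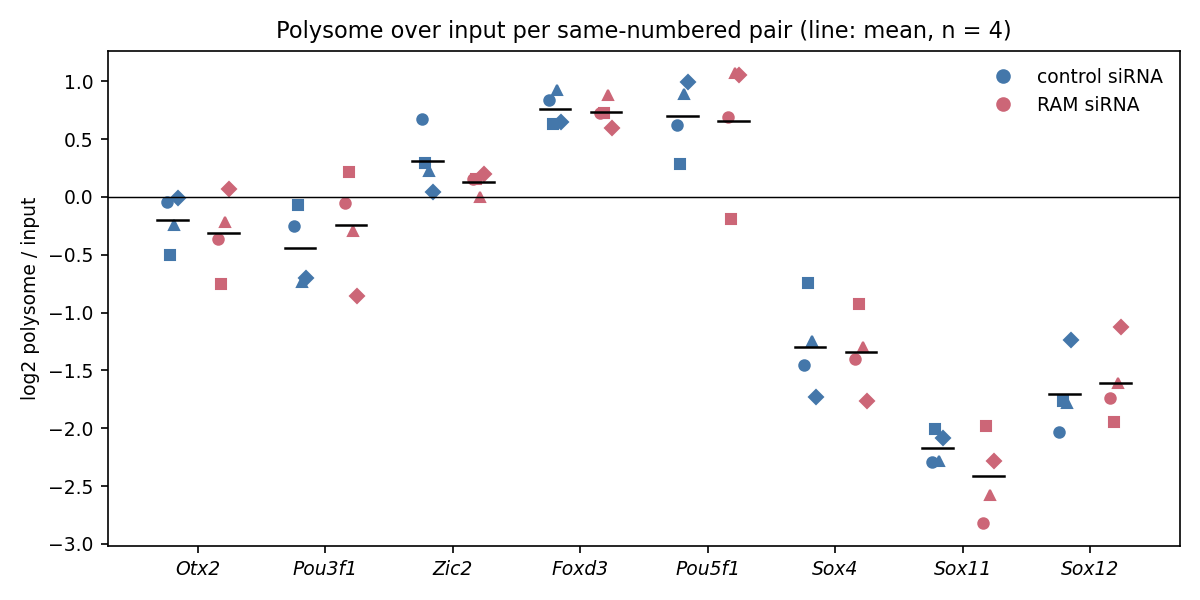
Log2 ratio of polysome to input (vertical axis) for each same-numbered pair of libraries in control cells (blue) and cells with RAM siRNA (red), with a symbol for each replicate number (circle 1, square 2, triangle 3, diamond 4) and the mean as a line. Foxd3 lies above 0 in all 8 pairs, and Sox4, Sox11 and Sox12 lie below 0 in all 8. The square of Pou5f1 with RAM siRNA is at -0.19.

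Over all tested genes, longer transcripts had lower ratios of polysome to input in control cells, a correlation across genes and not across replicates (Spearman's rho = -0.36, 12777 genes in the same 8 libraries). Of 10 equal groups by length, that of the longest transcripts had a median log2 ratio of -0.89, and the group with the second shortest, which includes Pou5f1, one of 0.58. Sox11, with a transcript of 8311 bases, was in the group of the longest, where 7.51% of genes had a lower ratio. Sox4, at 4795 bases, had 9.87% of the genes of its own group below it and Sox12, at 4453 bases, 5.25%. Foxd3 and Pou5f1, at 2324 and 1362 bases, stood near the middle of their own groups, above 59.7% and 55.6% of the genes. The part of transcript length in these ratios was not tested.

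**Figure D4:**
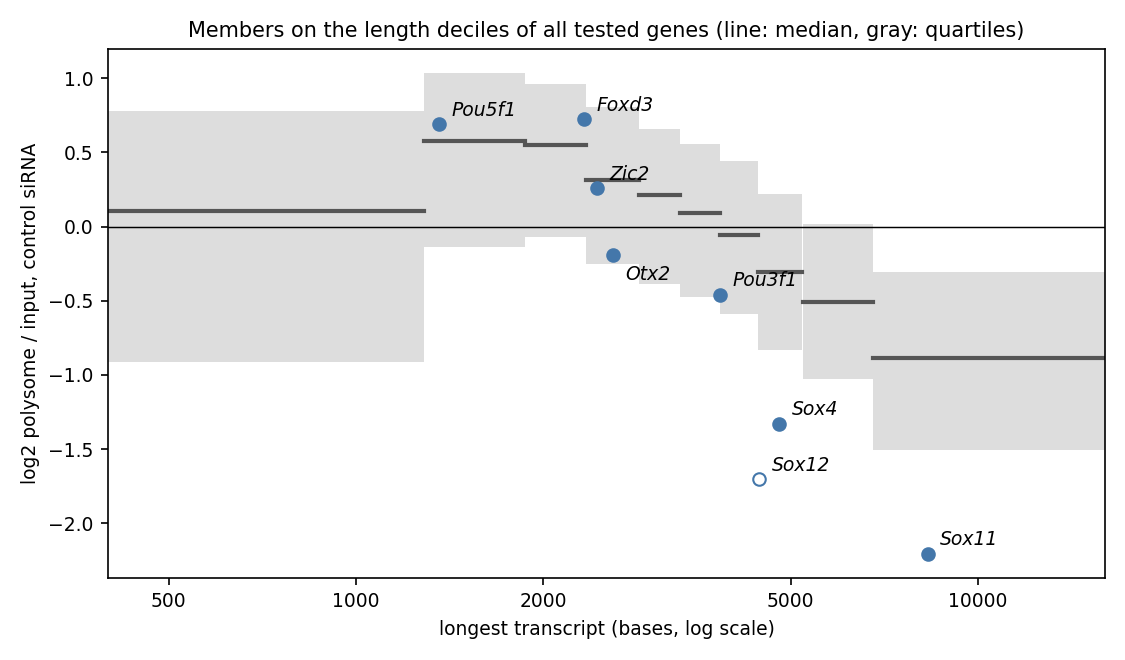
Log2 ratio of polysome to input in control cells (vertical axis) against the length of the longest transcript (horizontal axis, log scale, cut at both ends) for the 7 genes tested (filled) and Sox12 (open). Dark lines are the medians and gray areas the quartiles of the 10 groups of all tested genes by length. Foxd3 and Pou5f1 lie within the gray area of short transcripts, and Sox4, Sox12 and Sox11 lie below it.

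Of 18 relatives from the same gene families, 9 passed the filter on low counts. The close relatives Pou3f2, Pou3f4, Zic1, Foxd2, Foxd4 and Otx1 had between 0 and 9 counts in control input libraries, and Zic4 had 0 in all 4. Sall4 (233.8 ± 16.2 CPM) and Sall1 (94.5 ± 10.4 CPM) were the leading members of the Sall family, and Fgf4, the FGF that ESCs secrete, had 381 ± 29.3 CPM where Fgf5 had 0.27 ± 0.10 CPM. In input with RAM siRNA, Fgf4 fell by 0.42 ± 0.09 on the log2 scale (adjusted p = 0.00809) and Pou2f3 rose by 0.66 ± 0.15 (adjusted p = 0.0117), 2 of 9, and neither was called in a fit over all 16 libraries (adjusted p = 0.339 and 0.0836). With the replicate block, Sall1 was lower too (-0.22, adjusted p = 4.34e-04).

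Of 19 other formative genes and regulators, 18 were tested in input and none passed without the block (background 12.9%). At an unadjusted p under 0.05 there were 2 of the 18, against 28% of all genes. DESeq2 called 1 and limma-voom 0. Among those that passed with the block, Utf1 (-0.21 ± 0.05, adjusted p = 8.67e-04) was lower and Dnmt3a, a de novo DNA methyltransferase, higher (0.32 ± 0.05, adjusted p = 3.65e-05). The largest estimates without the block were those of Fgf15 (-0.46 ± 0.25, adjusted p = 0.270), Dnmt3a (0.33 ± 0.15, adjusted p = 0.162) and Pim2 (0.30 ± 0.15, adjusted p = 0.201). The median of the list was -0.02, close to that of all genes. The -0.19 of the 7 genes followed here is the value of Pou5f1 alone, with 4 of the 7 lower and 3 higher.

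Of 14 other primed and gastrulation genes only 6 were tested, and Cer1 had 0 counts in all input libraries. Cdh2 (N-cadherin) rose by 0.70 ± 0.15 on the log2 scale (adjusted p = 0.0103, and 0.344 in a fit over all 16 libraries). With the block, the Nodal inhibitors Lefty1 (0.88 ± 0.15, adjusted p = 1.27e-04) and Lefty2 (0.61 ± 0.18, adjusted p = 0.00895) were higher and Eomes, a T-box factor, lower (-0.32 ± 0.09, adjusted p = 0.00680). Lefty2 was lower with RAM siRNA in replicate 4, at 7.64 against 9.91 CPM, and its blocked call was lost without replicate 1 (0.41, adjusted p = 0.180) or 3 (0.35, adjusted p = 0.104), as that of Eomes was without replicate 1 (adjusted p = 0.0836). In input DESeq2 with the block did not call Lefty2 (adjusted p = 0.307), and called Lefty1 (0.0484) and Eomes (0.0465) close to the threshold. In polysomes 0 of the 6 passed without the block (background 0.0234%), as also with DESeq2 and limma-voom. None of the 6 had an unadjusted p under 0.05 in the fit without the block (9% of all genes). With the block Cdh2 and Lefty1 were higher there (0.76, adjusted p = 0.00780, and 0.89, adjusted p = 0.00568), and also without replicate 2 (0.55, adjusted p = 0.0112, and 0.89, adjusted p = 5.03e-04). DESeq2 with the block called Cdh2 there and did not call Lefty1 (adjusted p = 0.0714).

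All 14 naive genes were tested in input, and 4 were lower without the block and 9 with it, with none higher (background 5.94% and 19% lower). The largest estimates were Dppa3 (-0.64 ± 0.30, adjusted p = 0.181, and 0.0163 with the block, where leaving out replicate 1 gave 0.121), Prdm14 (-0.51 ± 0.12, adjusted p = 0.0133), Tbx3 (-0.34 ± 0.09, adjusted p = 0.0329) and Nanog (-0.29 ± 0.07, adjusted p = 0.0205). Esrrb was the fourth gene called without the block. DESeq2 with the block did not call Dppa3 (adjusted p = 0.167). The call of Tbx3 was lost without control replicate 1, 2 or 3 or RAM siRNA replicate 1 (adjusted p = 0.0672 to 0.0934), and that of Nanog without control replicate 1 or 4 or RAM siRNA replicate 1, 2 or 3 (adjusted p = 0.0542 to 0.0792). In a fit over all 16 libraries Prdm14 (adjusted p = 0.0536), Tbx3 (0.514) and Nanog (0.269) were not called. The naive genes had a median of -0.17, with 92.9% of them below 0, beside 57.1% of the 7 genes and 49.9% of all genes. The formative and primed genes tested lay on both sides of 0.

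**Figure D5:**
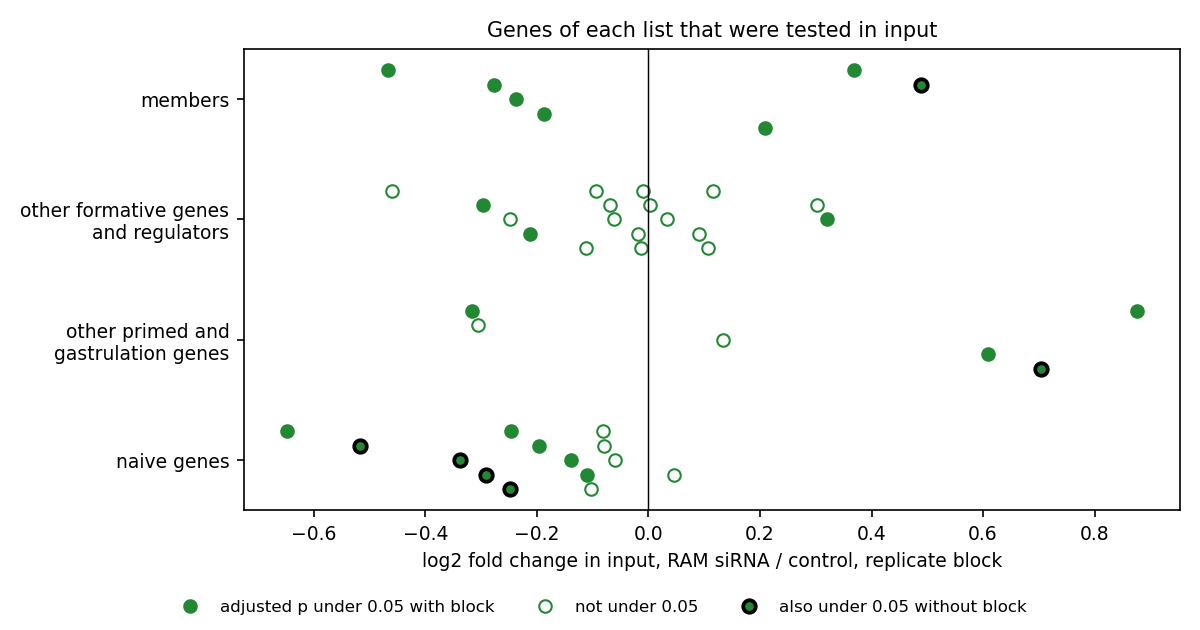
Log2 fold change of RAM siRNA over control in input with the replicate block (horizontal axis) for the genes of each list that were tested, spread vertically within a list for legibility only. Filled points have an adjusted p under 0.05, and a black rim marks genes also called without the block. The 7 genes followed here lie on both sides of 0, between -0.47 and 0.49, and 13 of 14 naive genes lie below it.

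Markers of other cell types moved with RAM siRNA beside these genes. Over all genes, 5.94% were lower and 6.95% higher in input without the block, and 19% and 20.3% with it. Without the block, 28% of all genes had an unadjusted p under 0.05. The primitive endoderm markers summed to 20.7 to 22.3 CPM in control input and 21.9 to 30.5 CPM with RAM siRNA, and 2 of 5 tested, Gata6 and Dab2, were higher. With the block Pdgfra was higher too (0.42, adjusted p = 0.00309) and Sox7 lower (-0.79, adjusted p = 0.00113). The markers of two-cell-like cells summed to 7.32 to 11.8 and 14.0 to 21.3 CPM, with 3 of 3 tested higher, and those of trophoblast to 24.9 to 29.9 and 16.5 to 23.4 CPM, with the 1 tested lower. The neural markers, 5 of 10 tested and 0 called without the block (2 at an unadjusted p under 0.05, 2 called by DESeq2 and 1 by limma-voom), summed to 75.0 to 85.7 and 81.5 to 94.2 CPM, and with the block Nes was higher (0.43) and Pax6 lower (-0.51). Of the 10 ESC markers 3 were lower without the block, and 6 lower and 1 higher with it. The fibroblast markers summed to 5.23 to 6.61 and 6.98 to 9.34 CPM, with the 1 tested higher. The part of such cells in the changes of the 7 genes was not tested.

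For each of the 7 genes, the other gene with the most similar profile over the 16 libraries was found among tested genes that averaged 10 CPM or more. Pearson's r of log2 CPM was 0.93 for Otx2 with Ifrd1, 0.88 for Pou3f1 with Nol10, 0.87 for Zic2 with Lefty1 and 0.97 for Foxd3 with Slc52a3. It was 0.97 for Sox4 with E330009J07Rik, 0.99 for Sox11 with Scarna6 and 0.99 for Pou5f1 with Ube2c. The 16 libraries share fractions and replicate numbers, and for the SoxC genes, Foxd3 and Pou5f1 much of the spread lies between polysomes and input, so these values describe the profiles only.

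A pair of hexamers, ACTATC and TGCTCA, taken from earlier results of these data, was looked for in 3′ UTRs. Because of that origin, the shares below among genes lower or higher in input are not independent evidence. Both hexamers were read on the sense strand of the 3′ UTR of the transcript with the longest coding sequence (GENCODE M21, GRCm38). ACTATC was found in 13.3% of the tested genes with a 3′ UTR, in 34.9% of those lower in input without the block (median 3′ UTR of 1267.5 bases, against 960.0 over all) and in 8.3% of those higher, and in 0 of the 9 formative and primed genes. The 4 genes that were lower with the block, Otx2, Pou3f1, Foxd3 and Pou5f1, thus had no match, in 3′ UTRs of 535, 1599, 588 and 221 bases. TGCTCA was found in 33.8% of tested genes and in 44.2% of those higher in input. Of the 9 genes only Sox11 had it, at 3 places in a 3′ UTR of 6957 bases, where 90.1% of tested genes with a 3′ UTR of at least 5000 bases have at least 1 match.

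The 3 matches in Sox11 are shown with their surroundings, 5′ to 3′ on the transcript strand (minus strand of GRCm38), with the hexamer in capitals, since they are the only ones among the 9 genes. They lie at chr12:27341132-27341159, chr12:27337670-27337697 and chr12:27335304-27335331.
Sox11 match 1: gggggagaagaTGCTCAtggtcagagag
Sox11 match 2: ggcaaataagtTGCTCAattttcaagta
Sox11 match 3: tgcagtgttaaTGCTCAgggttgaattc
The second match begins 3535 bases into the 3′ UTR and is followed by a further A, which makes the heptamer TGCTCAA, found in 7.76% of tested genes, 15.5% of those higher in input without the block and 29.1% of those with a 3′ UTR of at least 5000 bases. The first begins 73 bases and the third 5901 bases into the 3′ UTR. A match describes the letters in this window and says nothing of what binds there.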

How the data were processed

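The authors ran FastQC, aligned reads to GRCm38 (STAR 2.5.1b, a version also in the submitters' processing notes) and assigned them to Ensembl genes by htseq-count. They deposited raw counts, with no normalization or filter. Strand and overlap settings and the annotation release are not given in the sources used here. Libraries were stranded and depleted of ribosomal RNA, and the study describes the 4 replicates as biological.

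Of 46983 genes, the 12805 that reached 1 CPM in 10 or more of 16 libraries were tested. The quasi-likelihood test of edgeR 4.0.16 (R 4.3.3, TMM scaling, Benjamini-Hochberg over all genes tested, threshold 0.05) used the 8 libraries of a fraction, the 8 control libraries, or all 16 for the change of loading. Two-sided exact permutation tests served the 2 genes below the filter. On simulated data the fits recovered the sign and median size of planted changes of 1 on the log2 scale. Smaller changes, such as those of the listed genes after RAM siRNA, were not simulated. DESeq2 1.42.0, limma-voom (limma 3.58.1), other scalings and filters and left-out libraries were alternatives, among them the fit with a replicate block.

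Same-numbered libraries pair: their deviations from the group means correlated in every pair, at least 0.40 in input, 0.63 in polysomes, and 0.23 and 0.30 between fractions (9140 genes). Blocked values stand beside the genes described and, by count, beside the longer lists.

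Symbols came from a gene name table (46488 IDs matched), and coordinates, merged exon lengths and 3′ UTRs from GENCODE M21. CPM levels were TMM scaled over all 16 libraries, and log2 ratios per pair used a prior count of 0.5. The genes, lists and hexamers were chosen with earlier results of these data known. The text names all 9 genes, Ramac, relatives by level in control input, genes of the formative and primed lists past the threshold or otherwise the 3 largest changes in input, the 4 largest among naive genes, and the most similar gene for each. Genes called with the block in counts of 5 or fewer, relatives called in input, Esrrb, Sox12 and markers of other cell types were named after their values were seen. Not every gene of the lists is reported here by name.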

Additional observations from a re-analysis of the deposited data

Results flagged for a closer look

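Of the 36 groups of 4 libraries (9 genes in 4 groups), 1 held a library far from the others. Zic2 in polysome RAM siRNA replicate 2 had 15.2 CPM, whereas the other 3 libraries of its group had 18.1, 18.2 and 18.7 CPM. That library is the one that stood apart from its group over all genes, and its control partner of the same number, at 13.6 CPM, was also the lowest of its group. Chance flags about 1 in 20 groups.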

How the results depend on the processing

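The 28 log2 fold changes of the 7 tested genes were recomputed under 588 settings in all, of which 497 kept direction and side of the threshold, 4 lost a call, 49 gained one and 38 changed sign. In the input comparison and in control polysomes against input no sign changed. The replicate block moved the count of genes called in input from 1651 to 5028 (members 7) and in polysomes from 3 to 1875 (members 1), and in the change of loading within fractions from 0 to 2. All 16 libraries in one fit gave 186 genes (members 0) in input and 453 in polysomes. DESeq2 gave 300 genes in polysomes and 1 in the change of loading. With no filter 2 members passed in input and 39 genes in polysomes, and with 1 CPM in 4 libraries 18 genes in polysomes. The cause of these shifts was not tested. Leaving out 1 library gave 913 to 2506 genes and 0 to 2 members in input, and 0 to 48 genes and 0 members in polysomes, the most without RAM siRNA replicate 4 and RAM siRNA replicate 2.

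Chosen after seeing the data, limma-voom and DESeq2 with the block gave 5034 and 3149 genes in input (members 7 and 4) and 1853 and 1588 in polysomes (members 1 and 1). The blocked fit without replicate 1, 2, 3 and 4 gave 3579, 4026, 4231 and 4967 genes in input (members 5, 6, 6 and 6) and 806, 4558, 1197 and 918 in polysomes (members 0, 3, 1 and 0). The 4 members that DESeq2 called in input with the block were Sox4, Zic2, Foxd3 and Pou5f1.

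Signs changed for 6 fold changes, none of them past the threshold. Sox11 in polysomes was -0.035 with library size alone, -0.026 with no filter, -0.0024 with 1 CPM in 4 libraries and -0.022 in one fit, and -0.086 to 0.13 with 1 library left out. With the block it was -0.077 without replicate 2 and -0.013 without replicate 4. Pou5f1 in polysomes ran from -0.35 to 0.098. For the change of loading, Foxd3 was 0.020 with RLE and with DESeq2, 0.053 with no filter and 0.030 with 1 CPM in 4 libraries, and -0.12 to 0.12 with libraries left out. Sox4 was 0.016 with no filter and -0.13 to 0.091 with libraries left out, and Otx2 ran from -0.36 to 0.15. Pou5f1 was -0.044 with limma-voom, -0.041 with the replicate block within fractions, -0.038 with the replicate block for each culture, and -0.21 to 0.22 with libraries left out. No block changed any call of loading among the members. Depth limits Fgf5, with at most 7 counts per library, and Sall2, with at most 31.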

Other observations

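Of the 9 genes, 5 had all 4 same-numbered pairs move the same way in both fractions with RAM siRNA: Otx2, Foxd3 and Pou5f1 lower, and Zic2 and Sox4 higher. None of the 9 had all 4 pairs in one direction in input and all 4 in the other in polysomes. How common either pattern is over all genes was not counted. Both fractions of a replicate came from the same lysate, so their agreement is not independent. Sall2, too low for the filter, had 0.62 ± 0.10 CPM in control polysomes and 0.97 ± 0.23 CPM in control input (n = 4), and an exact permutation test of that difference gave p = 0.0571. It was lower in polysomes in all 4 pairs under both siRNAs, and with RAM siRNA its 4 polysome libraries lay below all 4 input libraries.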
